A study of Mus musculus with 16 samples.

Results

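The regions described here are stretches of mouse chromosomes 1 to 19 that carried histone H3 lysine 4 trimethylation (H3K4me3) in control and in Hdac1-mutant-injected late 2-cell embryos, carried no called H3K27 acetylation (H3K27ac) in either, and lay away from protein-coding genes. They were chosen by the peak calls themselves, and are called H3K4me3-only regions below. A region is a peak of the water H3K4me3 list that was 2000 to 10000 bp wide, overlapped a peak of the mutant H3K4me3 list by at least 1 bp, overlapped no peak of either H3K27ac list, and had its midpoint more than 10 kb outside every protein-coding gene body. Of the 86857 water H3K4me3 peaks, 1396 met the rule (1.61%). The label holds by construction, because each mark was part of the rule. A missing call is not a missing mark, since the lists say only where a peak was called.

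The study used late 2-cell mouse embryos taken 36 h after fertilization, which had received an injection of water (control) or of Hdac1 mutant mRNA (mutant) at the zygote stage. The labels do not say which mutation the mRNA carried, nor how many embryos went into a library, and the control is water rather than another mRNA. Both marks were profiled by ULI-NChIP-seq, an ultra-low-input method in which unfixed chromatin is cut with micrococcal nuclease and pulled down with an antibody. There were 16 libraries in 8 groups of 2, an antibody and an input group for each mark and condition, and 1 peak list for each of the 4 antibody groups. The lists held positions only. With 1 list per group there was no replicate error and no test of the conditions, sequencing depth was unknown, and intervals below are 95% Wilson intervals that cover counting error only.

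H3K4me3 is placed on nucleosomes around transcription start sites, and CpG-rich promoters carry it in most cell types. Mouse oocytes also carry broad, so-called non-canonical H3K4me3 domains far from promoters, and these are removed from the maternal genome around the 2-cell stage, when the embryonic genome is switched on. H3K27ac marks active promoters and enhancers. Hdac1 is a histone deacetylase that removes acetyl groups from histone tails. Embryos were measured in bulk, so a narrower or missing peak does not separate fewer marked embryos or alleles from less signal at each of them.

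Among the H3K4me3-only regions were 8 that held genes of microRNAs (miRNAs), 17 genes in all, of which 14 had a mature sequence in the RefSeq miRNA table (GRCm38.p6). The mature arms below are shown because the loci they come from are described next. They are written 5′ to 3′ with the seed, bases 2 to 8, in capitals.
miR-17-5p (chr14:115043684-115043706, plus strand): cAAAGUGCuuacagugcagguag
miR-20a-5p (chr14:115044183-115044205, plus strand): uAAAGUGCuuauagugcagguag
miR-18a-5p (chr14:115043867-115043889, plus strand): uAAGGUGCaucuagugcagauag
miR-19a-3p (chr14:115044048-115044070, plus strand): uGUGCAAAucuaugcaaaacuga
miR-19b-3p (chr14:115044358-115044380, plus strand): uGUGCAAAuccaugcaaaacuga
miR-92a-3p (chr14:115044476-115044496, plus strand): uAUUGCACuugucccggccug
miR-9-5p (chr3:88215613-88215635, plus strand): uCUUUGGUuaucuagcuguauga
miR-129-5p (chr2:94241419-94241439, minus strand): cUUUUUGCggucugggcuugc
miR-193b-3p (chr16:13449570-13449591, plus strand): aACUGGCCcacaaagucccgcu
Within the Mir17 cluster, miR-17-5p and miR-20a-5p shared the seed AAAGUGC. The arms miR-19a-3p and miR-19b-3p shared the seed GUGCAAA. The seeds of miR-18a-5p and miR-92a-3p were AAGGUGC and AUUGCAC.

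The 17 miRNA genes lay in 8 H3K4me3-only regions, and the largest group was a cluster on chromosome 14. Mir17, Mir18, Mir19a, Mir20a, Mir19b-1 and Mir92-1, known as the Mir17-92 polycistron that promotes cell proliferation, lay together in chr14:115040206-115045428. That region was 5223 bp wide in water embryos and fell wholly under a mutant peak of 6576 bp, a mutant to water width ratio of 1.26. Its nearest coding gene, Gpc5, a heparan sulfate proteoglycan of the cell surface, was 49384 bp from the midpoint. The nearest water H3K27ac peak was 63533 bp away, and the nearest mutant H3K27ac peak was 1490 bp away.

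Genes of neural miRNAs formed the next set. Mir9-1, whose product miR-9 acts in neural progenitors, lay with Mir3093 and Gm25641 in chr3:88213012-88216389, 3378 bp wide and wholly under a mutant peak of 6491 bp. Mir124a-3, a gene of the neuronal miR-124, lay in a 5075 bp region, chr2:180890407-180895481, under a mutant peak of 6794 bp. Mir129-2 and Mir129b, which overlap on opposite strands, lay in chr2:94239537-94241918, 2382 bp wide, inside the body of the host transcript Mir670hg. The mutant peak there was narrower, 1997 bp, and covered 83.8% of the region. Mir9-3hg, the host gene of a further miR-9 gene, had a listed internal start, inside its annotated body, in a region of 2348 bp that a mutant peak covered in full, with a ratio of 2.03.

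The remaining miRNA regions were at Mir193b, Mir6516, Mir7229 and the Mir143 and Mir145a pair. The Mir193b region on chromosome 16 was 5022 bp wide with a ratio of 0.810. The Mir6516 region on chromosome 11, which also held the small nucleolar RNA host gene Snhg20, was 8899 bp wide with a ratio of 0.620. The Mir7229 region on chromosome 5 was 2099 bp wide with a ratio of 0.511. The Mir143 and Mir145a region on chromosome 18 was 4465 bp wide, was wholly covered, and had a ratio of 2.37. This pair of miRNAs is known from smooth muscle, and the same region overlapped the cardiac noncoding transcripts Carmn and Bvht. Across the 8 miRNA regions the mutant peaks were thus narrower than the water peak at Mir129-2, Mir193b, Mir6516 and Mir7229 and wider at the other loci.

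Of the 242 miRNA genes whose midpoints met the same distance rule, 17 (7.02%, 4.43 to 11.0%) lay under an H3K4me3-only region and 9 (3.72%) under a shared H3K4me3 peak with H3K27ac. Neighbouring genes of 1 cluster share a region, so these are not independent counts. A water H3K4me3 peak of any kind lay over 46 of the 242 and a water H3K27ac peak over 17. Counted by region, 0.573% of H3K4me3-only regions (0.291 to 1.13%) and 0.161% of shared regions with H3K27ac (0.0779 to 0.331%) overlapped a miRNA gene.

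**Figure D1:**
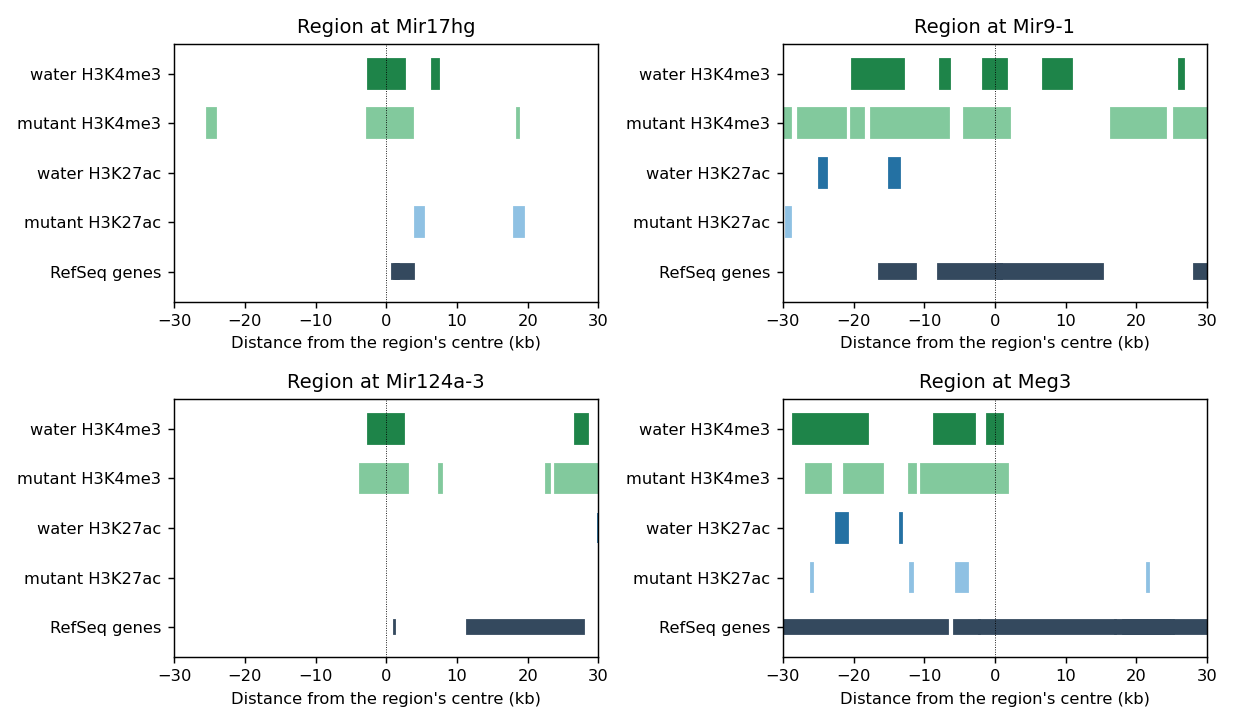
Maps of 4 H3K4me3-only regions, at Mir17hg, Mir9-1, Mir124a-3 and Meg3. The horizontal axis is the distance from the centre of the region in kb (30 kb to each side), each row is 1 peak list, and the lowest row gives RefSeq genes. In all 4 maps a mutant H3K4me3 bar overlaps the central water bar and no H3K27ac bar does.

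Among all classes of noncoding gene, lncRNA genes and pseudogenes were the most numerous. In all, 434 of the 1396 H3K4me3-only regions (31.1%, 28.7 to 33.6%) overlapped at least 1 noncoding gene, and 483 such genes were involved. Long noncoding RNA (lncRNA) genes were under 353 regions, pseudogenes under 72, tRNA genes under 10, and transcribed pseudogenes under 8. The share over any noncoding gene was 30.8% (29.4 to 32.1%) for the 4356 shared intergenic regions with H3K27ac. It was 24.1% (21.9 to 26.5%) for the 1290 unshared intergenic water peaks without H3K27ac and 22.6% (20.8 to 24.4%) for the 2127 unshared ones with it. The H3K4me3-only interval thus overlapped that of the shared regions with H3K27ac and lay above those of both unshared classes. The classes differ in width, and within the width ranges of 2 to 3, 3 to 5 and 5 to 10 kb the share of H3K4me3-only regions was 28.2% (24.8 to 31.9%), 30.4% (26.6 to 34.4%) and 39.5% (33.7 to 45.7%). For unshared regions without H3K27ac it was 22.5% (19.7 to 25.4%), 26.6% (22.5 to 31.3%) and 28.9% (20.3 to 39.4%), so these intervals overlapped in every range. For unshared regions with H3K27ac it was 21.1% (18.5 to 23.9%), 21.7% (19.1 to 24.6%) and 27.7% (23.5 to 32.3%), below the H3K4me3-only interval in every range.

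Some of the named lncRNAs lie beside genes of regulators, and those given here are picked examples, not a count. Others had other nearest coding genes, such as Prelp for Bmncr and Pip4k2a for Carlr. Pax6os1, named for the neighbouring eye and brain regulator Pax6, held 3 H3K4me3-only regions with ratios of 1.09, 2.97 and 3.27. The last 2 values come from a single mutant peak of 9091 bp that spans both regions. Sox2ot, whose body surrounds the pluripotency and neural factor Sox2, held 2 regions, of 2354 and 4375 bp, both wholly covered in mutant embryos, with ratios of 1.56 and 1.60. Pantr1 beside the neural gene Pou3f3 held a region with a ratio of 3.84, and Dlx6os1 beside the forebrain and limb gene Dlx6 held one with a ratio of 3.15. Hdnr, near the heart gene Hand2, held a region of 4270 bp with a ratio of 0.521. Junos, named for the stress and growth factor gene Jun, held one of 2635 bp with a ratio of 0.816.

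Further named lncRNAs included Meg3, Lncpint, Lexis1 and Platr10. Meg3, an imprinted transcript expressed from the maternal allele, held a 2347 bp region inside its body. The mutant peak over it was 12247 bp, a ratio of 5.22. It also spanned another water H3K4me3 peak, from -8.62 to -2.76 kb of the region's centre, which the ratio leaves out. That long mutant peak also held a mutant H3K27ac peak, 2660 bp outside the region itself. Lncpint, a p53-induced transcript, had a listed start in a 2700 bp region that was wholly covered, with a ratio of 2.04. A water H3K27ac peak lay 292 bp from that region. Lexis1, a liver transcript of cholesterol metabolism, had its start in a 7663 bp region of which 21.3% lay under a mutant peak of 1633 bp. Platr10, named among transcripts of the pluripotent state, had its start in a 2745 bp region that was 46.2% covered.

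The tRNA genes under H3K4me3-only regions numbered 14, in 10 regions, and most lay in the chromosome 13 tRNA cluster. The region over n-TKttt23 and n-TDgtc11, genes of lysine and aspartate tRNAs, was 4067 bp wide with a mutant peak of 12045 bp. The region over n-TAagc17, an alanine tRNA gene, was 9220 bp wide, 1 of the 10 widest, and 27.6% of it lay under a mutant peak of 2548 bp. The region over n-TIaat3 was 7343 bp wide with a ratio of 0.414. Ratios of regions over tRNA genes therefore ran in both directions within 1 cluster. Of 194 tRNA genes that met the distance rule, 14 were under an H3K4me3-only region (7.22%) and 28 under a shared region with H3K27ac (14.4%). Any water H3K4me3 peak lay over 104 of them and a water H3K27ac peak over 21. Counted by region, 0.716% of H3K4me3-only regions (0.390 to 1.31%) overlapped a tRNA gene. For the more numerous shared regions with H3K27ac it was 0.367% (0.226 to 0.596%), an interval that overlapped the first. Copies of a tRNA gene have near-identical sequence, so reads can be assigned to the wrong copy. The same limit holds for pseudogenes, and for the ribosomal DNA-like copy Rn18s-rs5 on chromosome 17, where a region of 5814 bp was 99.6% covered by a mutant peak of 5793 bp.

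Starts of annotated transcripts were looked up in a RefSeq table of promoter windows (GRCm38.p6), each running from 250 bases before to 50 bases after a start. Of the H3K4me3-only regions, 135 (9.67%, 8.23 to 11.3%) overlapped at least 1 listed window, 161 windows of 141 genes, all of them lncRNA genes and none coding. Windows are shown for Gm40716, which had the highest CpG content, for Snhg20, Mir9-3hg and Lncpint among named genes with many CpG sites, and for Mir17hg and Platr10 with few. They are written 5′ to 3′ on the gene's strand, with each CG dinucleotide in capitals.
Gm40716 (chr10:80475331-80475630, minus strand): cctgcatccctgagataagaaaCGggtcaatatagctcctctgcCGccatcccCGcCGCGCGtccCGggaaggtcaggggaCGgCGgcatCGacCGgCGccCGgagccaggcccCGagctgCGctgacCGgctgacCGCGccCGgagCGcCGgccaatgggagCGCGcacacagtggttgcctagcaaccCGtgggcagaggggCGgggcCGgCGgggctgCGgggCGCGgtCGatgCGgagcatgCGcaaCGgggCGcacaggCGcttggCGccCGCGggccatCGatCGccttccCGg
Snhg20 (chr11:117076533-117076832, plus strand): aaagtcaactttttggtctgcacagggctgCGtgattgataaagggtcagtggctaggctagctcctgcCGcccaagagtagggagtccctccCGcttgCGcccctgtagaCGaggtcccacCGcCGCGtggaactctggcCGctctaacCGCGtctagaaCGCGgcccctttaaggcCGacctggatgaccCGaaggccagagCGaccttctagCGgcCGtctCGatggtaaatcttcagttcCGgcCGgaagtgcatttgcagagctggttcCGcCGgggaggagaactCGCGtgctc
Mir9-3hg (chr7:79515185-79515484, plus strand): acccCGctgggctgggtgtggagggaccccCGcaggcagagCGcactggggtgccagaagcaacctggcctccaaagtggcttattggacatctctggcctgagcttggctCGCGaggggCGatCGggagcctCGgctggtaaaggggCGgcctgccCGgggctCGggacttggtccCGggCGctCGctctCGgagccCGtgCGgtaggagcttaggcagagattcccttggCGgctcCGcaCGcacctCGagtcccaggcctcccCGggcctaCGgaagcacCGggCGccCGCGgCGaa
Lncpint (chr6:31218425-31218724, minus strand): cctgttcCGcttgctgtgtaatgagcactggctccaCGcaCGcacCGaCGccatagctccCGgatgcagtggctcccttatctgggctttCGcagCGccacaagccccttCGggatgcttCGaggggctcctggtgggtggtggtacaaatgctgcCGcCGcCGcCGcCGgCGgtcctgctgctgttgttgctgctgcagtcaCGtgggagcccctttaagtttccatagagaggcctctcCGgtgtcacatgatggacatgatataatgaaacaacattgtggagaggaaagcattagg
Mir17hg (chr14:115044140-115044439, plus strand): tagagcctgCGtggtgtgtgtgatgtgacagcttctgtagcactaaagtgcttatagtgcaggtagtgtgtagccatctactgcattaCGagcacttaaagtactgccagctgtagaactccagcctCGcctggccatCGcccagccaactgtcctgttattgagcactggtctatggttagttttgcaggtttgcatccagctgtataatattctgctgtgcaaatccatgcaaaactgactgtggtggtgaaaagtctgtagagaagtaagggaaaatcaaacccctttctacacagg
Platr10 (chr3:75655682-75655981, minus strand): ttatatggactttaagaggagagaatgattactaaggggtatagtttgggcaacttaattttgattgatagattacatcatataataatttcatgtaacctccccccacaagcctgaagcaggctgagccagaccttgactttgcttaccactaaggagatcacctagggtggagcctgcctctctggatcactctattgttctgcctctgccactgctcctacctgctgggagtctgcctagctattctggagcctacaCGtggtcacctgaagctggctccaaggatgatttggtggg
The ratio of observed to expected CpG, 1 when CG dinucleotides are as frequent as the C and G content alone gives, was 1.02 for Gm40716 (42 CpG, 74.0% GC) and 0.896 for Snhg20 (25 CpG, 61.0% GC). It was 0.751 for Mir9-3hg and 0.698 for Lncpint. At the other end it was 0.242 for Mir17hg (4 CpG) and 0.060 for Platr10 (1 CpG). The listed start of Mir17hg falls among the miRNAs of its own cluster, so its window covers part of the miRNA genes and not the sequence before them.

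Most windows under H3K4me3-only regions were CpG-poor. Their median CpG observed to expected ratio was 0.344 (quartiles 0.196 and 0.520), and 26 of 161 (16.1%) reached 0.6. The 386 windows under shared regions with H3K27ac had a median of 0.301, and 57 of them (14.8%) reached 0.6. Intergenic noncoding windows with no water H3K4me3 (4672 windows) had a median of 0.185 and 2.80% reached 0.6, while over all 31365 windows of the table, of which 5859 are intergenic noncoding ones, the median was 0.388 and 36.4% reached 0.6. Median GC content was 50%, 50.3%, 45.8% and 53.0% in the same order. Of the 361 lncRNA genes under H3K4me3-only regions, 287 (79.5%) had a listed window, which is under the 80% needed, so the comparison is void for lncRNA genes as a set and describes the listed windows only.

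In all, 5 short motifs were searched on both strands of these windows, and their counts are descriptions of letters, not of bound sites. Each is given for the 161 windows, then for the windows under shared regions with H3K27ac, for the intergenic noncoding windows without water H3K4me3, and for all windows of the table. CCAAT, the NF-Y core, was in 57 of the 161 (35.4%), and in 35.2%, 38.9% and 37.3% of the others. GGGCGG, the Sp and Klf core, was in 32 (19.9%), and in 15.8%, 6.08% and 36.0%. TAATCC, the Obox and Otx core, was in 23 (14.3%), and in 9.33%, 9.05% and 7.07%. AAGGTCA, the Nr5a2 core, was in 13 (8.07%), and in 6.22%, 6.36% and 4.696%. CACGTG, the E-box, was in 16 (9.94%), and in 6.99%, 4.73% and 7.14%. Windows of different starts of 1 gene can overlap and were counted separately, with 161 windows for 141 genes. No motif's letters contain another's. The Gm40716 window held the NF-Y, Sp and Klf and Nr5a2 letters, and the Snhg20 window the Sp and Klf letters. The Mir9-3hg window held the NF-Y and the Sp and Klf letters. Lncpint and Platr10 windows held the E-box letters, and the Mir17hg window none of the 5 motifs.

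The share of regions over a listed promoter window was highest at 5 to 10 kb in both shared classes, so it was also read by width. At 2 to 3 kb it was 7.99% (6.10 to 10.4%) of 613 H3K4me3-only regions and 4.70% (3.60 to 6.11%) of 1106 shared regions with H3K27ac. At 3 to 5 kb the values were 8.49% (6.41 to 11.2%) and 5.98% (4.91 to 7.26%), and at 5 to 10 kb they were 16.2% (12.2 to 21.2%) and 9.54% (8.22 to 11.0%). The H3K4me3-only value was higher in all 3 width ranges, with separate intervals at 5 to 10 kb only. No test of the difference was made.

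**Figure D2:**
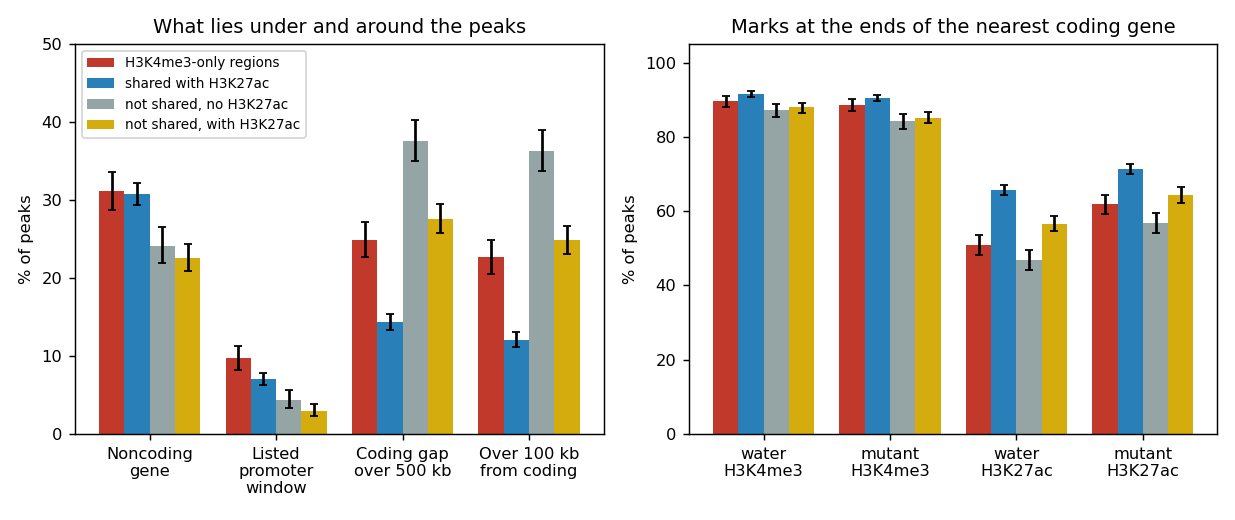
Left, percentage of regions over a noncoding gene, over a listed promoter window, in a gap between coding genes of over 500 kb, and over 100 kb from a coding gene, for H3K4me3-only regions and the other intergenic water H3K4me3 peaks of 2 to 10 kb. Right, percentage whose nearest coding gene had a peak within 2 kb of either end, by list. Bars are percentages and error bars are 95% Wilson intervals. The H3K4me3-only bar for promoter windows stands at 9.67%, and its bars for H3K27ac at the nearest gene stand at 50.9% and 61.9%.

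The steps of the rule show how the regions arise. Of 83220 water H3K4me3 peaks on chromosomes 1 to 19, 33191 were 2 to 10 kb wide and 9169 of those lay more than 10 kb from coding genes. Of these, 5752 overlapped a mutant H3K4me3 peak. Over all water H3K4me3 peaks of 2 to 10 kb, wherever they lay, 71.3% overlapped a mutant peak. Of the 5752, 2299 (39.97%) had H3K27ac in both lists, 883 (15.4%) in water only, 1174 (20.4%) in mutant only and 1396 (24.3%, 23.2 to 25.4%) in neither. Among 17914 shared peaks of the same widths inside or within 10 kb of coding genes, 3671 (20.5%, 19.9 to 21.1%) had H3K27ac in neither list. These values follow from the calls that the rule uses.

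**Figure D3:**
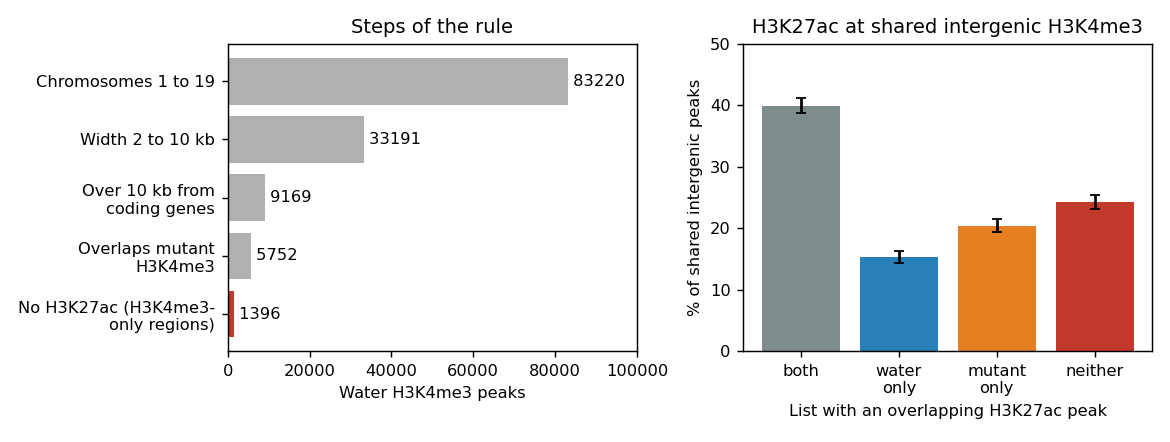
Left, number of water H3K4me3 peaks left after each step of the rule, from 83220 to 1396. Right, percentage of the 5752 shared intergenic peaks with H3K27ac in both lists, in water only, in mutant only or in neither. Bars are percentages with 95% Wilson intervals, and the H3K4me3-only regions are the 24.3% at the right.

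Distances to the nearest H3K27ac peak varied widely, and the distance that list density alone would give was not computed. The distance from an H3K4me3-only region to the nearest water H3K27ac peak had a median of 10871 bp (quartiles 4188 and 23792 bp) and a range of 8 to 195181 bp. To the nearest mutant H3K27ac peak the median was 5034 bp (quartiles 2097 and 10762 bp). For unshared regions without H3K27ac the medians were 12443.5 bp to a water peak and 6040.5 bp to a mutant peak. The mutant H3K27ac list held more peaks on these chromosomes, 114737 against 73320, over a similar total length, 237 against 242 Mb, and the part of list density in the nearer distances was not tested. In 235 regions (16.8%) an H3K27ac peak of either list lay within 1 kb, and without these regions 1161 were left.

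H3K4me3-only regions were between 2000 and 9919 bp wide, with a median of 3192 bp and quartiles of 2515 and 4433 bp. The shared regions with H3K27ac were wider, with a median of 4247 bp, and the unshared regions without H3K27ac narrower, at 2679 bp. The part of width in differences between the classes was not tested, except where shares are given by width. The widest, chr17:45800850-45810768, was 9919 bp and overlapped the noncoding gene Gm46607. It was followed by regions of 9774 bp near Arhgap5, 9669 bp near Saraf, 9615 bp near Sh3pxd2b and 9585 bp near Mns1. None of these 5 was wholly covered in mutant embryos, with between 38.02 and 85.1% of their bases under mutant peaks. Just outside the rule were peaks of 1999 and 1995 bp on chromosomes 11 and 2 and peaks of 10029 and 10061 bp on chromosomes 3 and 14. In all 2373 otherwise fitting peaks were too narrow and 21 too wide, and 1056 had their midpoints outside coding gene bodies but within 10 kb of one.

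The mutant H3K4me3 peaks over these regions varied over a wide range. The summed width of the overlapping mutant peaks had a median of 4068 bp (quartiles 2357 and 6958 bp) and ran from 188 to 53789 bp. The mutant to water width ratio had a median of 1.17 (quartiles 0.716 and 1.99). At least 1.5 times wider in mutant embryos were 511 of 1396 regions (36.6%), and the background over all 23666 shared water peaks of 2 to 10 kb was 44.6%. At least 1.5 times narrower were 320 (22.9%), and the background was 15.9%. The rule rests on the same contrast, so nothing is read from these shares. The mutant peaks were counted in full, so a ratio above 1 can come from bases beyond the water peak. Those bases can lie under other water H3K4me3 peaks, whose widths the ratio leaves out.

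The share of a region's own bases under mutant peaks had a median of 75.5%, with 363 regions (26.0%) wholly covered and 53 (3.80%) under 10% covered. A single mutant peak overlapped 1279 regions, 2 overlapped 112 and 3 overlapped 5. Conversely, 34 of the 1483 mutant peaks involved touched 2 or 3 regions, so 69 regions (4.94%) shared a mutant peak with another and are not separate observations of the mutant list. The median ratio fell with water width, from 1.35 at 2 to 3 kb to 1.11 at 3 to 5 kb and 0.921 at 5 to 10 kb. Over all shared water peaks it fell likewise, from 1.71 to 1.40 and 1.16. The water width is the denominator of the ratio, so the fall with width is not a separate measurement.

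A mutant H3K4me3 peak can reach past the water region into acetylated chromatin. In 254 of the 1396 regions (18.2%, 16.3 to 20.3%) an overlapping mutant H3K4me3 peak also overlapped a mutant H3K27ac peak somewhere outside the region. This was so for 204 of the 511 regions that were at least 1.5 times wider (39.9%, 35.8 to 44.2%) and for 5 of the 320 that were at least 1.5 times narrower (1.56%). A longer mutant peak covers more sequence in which another peak can lie and also raises the ratio, so nothing is read from the difference between these shares.

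The extremes of the ratio were single long or short mutant peaks. A 2066 bp region near Cux2, a homeobox gene of cortical neurons, lay under a mutant peak of 53789 bp, a ratio of 26.0. The gap between coding genes there was 42308 bp, so that mutant peak also ran into a coding gene body. Regions near Snx18, Arhgap35, Katnal1 and Cryaa, the last a lens crystallin gene, had ratios of 10.2, 9.48, 8.85 and 8.63, and all 5 were wholly covered. At the other end, a 7715 bp region near Corin, inside the transcribed pseudogene entry Atp10d, met a mutant peak of 281 bp, a ratio of 0.036. Regions near Syt6, Crygs, Cep295 and Slc16a7 had ratios of 0.037, 0.039, 0.042 and 0.045, from mutant peaks of 188 to 303 bp. Those 5 count as shared by the 1 bp rule although under 5% of their bases were covered.

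**Figure D4:**
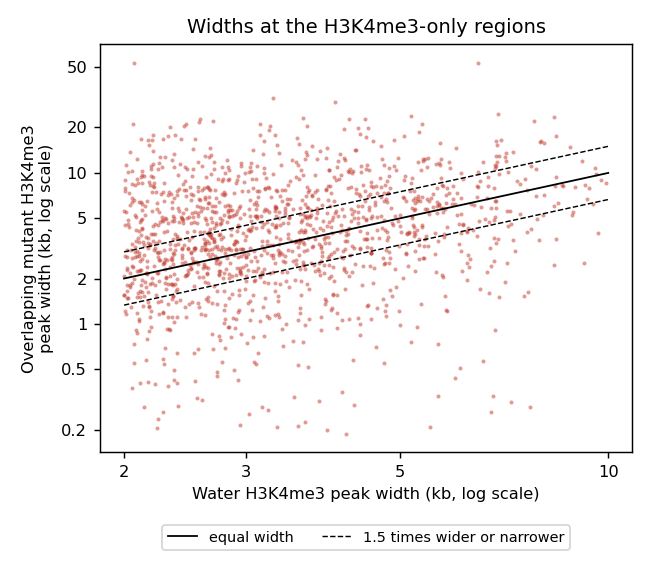
Width of each of the 1396 H3K4me3-only regions in water embryos (horizontal axis, kb, log scale) against the summed width of the overlapping mutant H3K4me3 peaks (vertical axis, kb, log scale). Each point is 1 region, the solid line marks equal widths and the dashed lines 1.5 times wider or narrower. Points lie between 188 and 53789 bp on the vertical axis, with 511 on or above the upper dashed line and 320 on or below the lower.

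The regions lay at a median of 42545 bp from the nearest coding gene (range 10010 to 1963639 bp), in gaps between coding genes with a median length of 205025 bp. In gaps of over 500 kb lay 347 of them (24.9%, 22.7 to 27.2%), against 14.3% (13.3 to 15.4%) of shared regions with H3K27ac and 37.6% (35.0 to 40.3%) of unshared regions without it. More than 100 kb from a coding gene were 22.6%, 12.0% and 36.3% in the same order. For unshared regions with H3K27ac the values were 27.6% (25.7 to 29.5%) and 24.8% (23.03 to 26.7%). On both measures the H3K4me3-only interval was separate from those of the shared acetylated and the unshared unacetylated peaks, which lay below and above it, and overlapped that of the unshared acetylated peaks. The 5 farthest from a coding gene included regions near Pcdh17 (1963639 bp), Celf4 (1899341 bp) and Pcdh20 (1425824 bp), genes expressed in neurons. The region farthest from a coding gene was exactly 2000 bp wide, at the lower bound of the rule.

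The nearest coding gene was often marked itself. A peak within 2 kb of either end of that gene was found in the water H3K4me3 list for 89.6% of H3K4me3-only regions (87.9 to 91.1%) and in the mutant list for 88.6% (86.8 to 90.2%). For H3K27ac the values were 50.9% (48.2 to 53.5%) in water and 61.9% (59.3 to 64.4%) in mutant embryos. For shared regions with H3K27ac the H3K4me3 values were 91.5% in water and 90.5% in mutant embryos, and the H3K27ac values 65.7% (64.2 to 67.1%) and 71.3% (69.9 to 72.6%). Over all 20661 coding genes H3K4me3 stood at 76.4% and 75.1%, and H3K27ac at 56.3% (55.6 to 56.96%) and 59.3% (58.6 to 59.96%). For unshared regions without H3K27ac the H3K27ac values were 46.9% (44.2 to 49.6%) in water and 56.9% (54.2 to 59.6%) in mutant embryos, and for unshared regions with it 56.7% and 64.4%. Water H3K4me3 at the nearest gene was 87.2% and 87.9% in these 2 classes. H3K27ac at the gene nearest to an H3K4me3-only region was thus below the value of all coding genes in water embryos, as it was for the unshared regions without H3K27ac, and in mutant embryos it was 61.9% against 59.3%, with intervals that overlapped. Counted once per gene, over the 1087 distinct nearest genes, water H3K27ac was at 548 (50.4%, 47.4 to 53.4%), against 63.4% of the 2796 genes nearest to shared acetylated regions. In the mutant list it was at 663 of them (60.99%), against 69.7%. A gene near an H3K4me3-only region may also be near an acetylated one, so the gene sets are not separate.

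The nearest genes included some of developmental transcription factors. Of the 1396 regions, 39 (2.79%, 2.05 to 3.80%) were nearest to a gene of the Sox, Pax, Lhx, Irx, Tbx, Gata, Zic, Fox, Nkx, Pou or Hox families, 27 genes in all. The share was 1.93% (1.56 to 2.38%) for shared regions with H3K27ac, an interval that overlapped the first, and these families make up 0.828% of coding genes. Genes in long gaps are nearest to more positions than genes in dense stretches, so the last value is not a matched base. Sox2 was nearest to 4 regions, at 10988 to 241373 bp, with ratios of 1.56 to 4.38. Foxq1 was nearest to 3, with ratios of 0.084 to 0.743, and Pax6 to 3, with ratios of 1.09 to 3.27. Single regions were nearest to Gata4 (ratio 0.115), Gata3 (2.17), Foxa2 (1.77), Lhx1 (2.53) and Nkx6-1 (1.58).

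All 27 of those genes had water H3K4me3 within 2 kb of an end, and H3K27ac differed among them. In 9, among them Sox2, Foxa2, Foxd3, Gata4 and Sox1, a mutant but no water H3K27ac peak lay there. In 4, Pax6, Foxo1, Foxn3 and Nkx2-3, the peak was in water but not in mutant embryos. In 5, Lhx1, Gata3, Pax2, Pou3f3 and Sox30, it was in both lists, and in the other 9, among them Irx1, Sox11 and Nkx6-1, in neither. Over all 1087 distinct nearest genes, H3K27ac was in mutant only at 267 (24.6%, 22.1 to 27.2%), in water only at 152 (13.98%) and in both at 396 (36.4%). Over all coding genes the shares were 15.7%, 12.7% and 43.6%. H3K27ac was also more frequent in the mutant list at distinct genes nearest to unshared regions without H3K27ac, 57.7% against 46.9% in water. The patterns of the 27 genes belong to genes picked for their family, and all are given as values.

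For families of genes that are active at the 2-cell stage, the count was 0. None of the 1396 regions was nearest to a Zscan4, Obox, Dux, Usp17l, Tdpoz, Zfp352 or Eif1a-like gene, and a count of 0 allows a share of up to 0.215% (3 counts of the total). Of the 4356 shared regions with H3K27ac, 25 were (0.574%, 0.389 to 0.846%), 10 of them nearest to an Obox gene and 7 to a Zscan4 gene. These families hold 30 coding genes, 0.145% of all, which is below the limit that a count of 0 allows here. Several of the genes lie in tandem arrays, and how many positions lie more than 10 kb from a gene there was not counted. The Olfr family of odorant receptors, 5.34% of coding genes, was nearest to 4 regions (0.287%) and to 0.230% of shared regions with H3K27ac. Zinc finger genes named Zfp were nearest to 26 (1.86%), against 2.66% of shared regions with H3K27ac and 1.88% of coding genes.

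H3K4me3-only regions occurred singly more often than in groups. Within 100 kb of another such region, midpoint to midpoint, were 542 (38.8%), leaving 854 alone. Groups of 2 numbered 160, of 3 numbered 43, of 4 numbered 15 and of 5 numbered 4, with a single group of 6 and a single group of 7. The corresponding share within its own class was 66.9% for the 4356 shared regions with H3K27ac, 21.8% for the 1290 unshared regions without and 38.2% for the 2127 unshared regions with it. The part of class size in these shares was not tested. The group of 7 spanned 169 kb of chromosome 17 between Haao and Zfp36l2, an RNA-binding protein gene, and held widths of 2795 to 8401 bp and ratios of 0.293 to 4.74. It crossed the isoleucine tRNA gene n-TIaat17 and 3 other noncoding genes. The group of 6 spanned 118 kb of chromosome 8 between Thap1 and Zfp703 with ratios of 0.747 to 4.11. Of its regions, 2 touched the same mutant peak of 6578 bp. The first of the 4 groups of 5 by chromosome and start spanned 260 kb of chromosome 3 near Lmo4 and Hs2st1, with ratios of 0.130 to 2.15.

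The regions named 1087 different nearest coding genes, and 865 of these were nearest to 1 region. Cadm1, an adhesion molecule gene, was nearest to the most, 7, at distances of 10241 to 210669 bp and with ratios of 0.574 to 1.63. Haao, which encodes an enzyme of the kynurenine pathway, and Thap1 were nearest to 6 each. Haao had no water H3K4me3 peak within 2 kb of either end but had a mutant one.

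By chromosome, density ran from 0.399 regions per Mb on chromosome 7 (58 regions) to 0.823 on chromosome 13 (99 regions), with 0.765 on chromosome 5 (116 regions). Of shared intergenic peaks, the share without H3K27ac was lowest on chromosome 11 (14.4%, 53 of 369) and highest on chromosome 9 (30.1%, 86 of 286). Chromosome 11 held 0.434 regions per Mb, near the lower end of the density range as well.

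**Figure D5:**
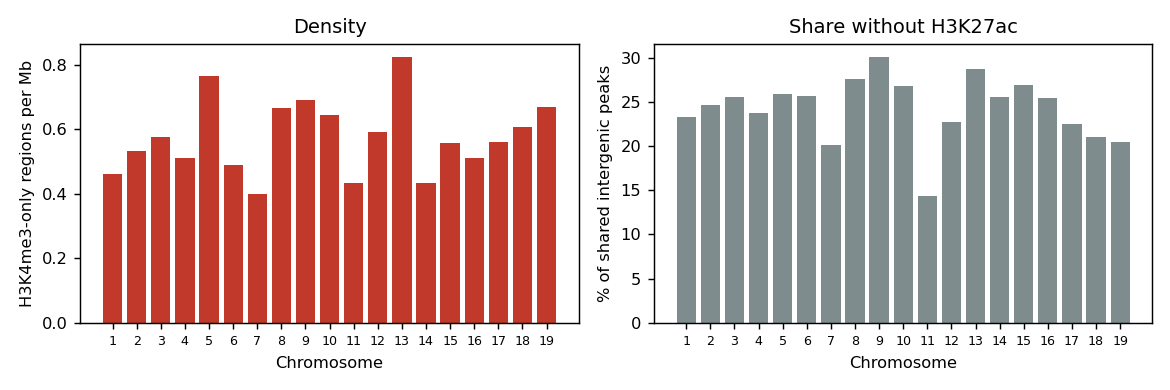
Left, number of H3K4me3-only regions per Mb of chromosome, where the length is the largest position in the lists or the gene table. Right, percentage of shared intergenic peaks on each chromosome with no H3K27ac in either list. Bars are single values, without error bars, and range from 0.399 to 0.823 per Mb and from 14.4 to 30.1%.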

How the data were processed

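The study's 16 ULI-NChIP-seq libraries are represented by 4 peak lists that the authors deposited, 1 for each antibody group, each holding the chromosome, start and end of a peak and no height or score. Peak positions in bp are the deposited unit. Per the submitters' processing notes the tools were CASAVA, Trimmomatic, Bowtie2, SAMtools, Picard, MACS2 and deepTools, and the builds mm10 and GRCm38; settings, versions and the pooling of replicates are not given in the sources used here. Calling limits that differ between lists would alter how many peaks each holds and how wide they are. Groups were taken from the sample titles. The rule and every gene list were chosen with earlier results of these data known.

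Positions were read as BED intervals and printed 1-based. Genes, promoter windows and miRNAs came from RefSeq tables of GRCm38.p6. Without a genome the GC content of whole regions was not computed, and composition was read in promoter windows, a choice made after the files were seen. Regions named were the 10 widest, the 5 farthest from a coding gene, the 5 highest and 5 lowest ratios, the 3 largest groups within 100 kb and those next to each bound. Ties were broken by chromosome and start. Named noncoding genes were those with a symbol other than Gm, LOC or Rik. Gene families were matched by the start of the symbol. The promoter windows printed, the miRNA arms, the developmental genes singled out and the count of mutant H3K4me3 peaks that also held H3K27ac were chosen after their values were seen. Interval functions were tested on simulated data. Tools were Python 3.11.15, numpy 2.4.6, pandas 2.3.3, scipy 1.17.1 and matplotlib 3.10.9. No test of the conditions was made. Alternatives changed the overlap, the acetylation margin, the gene distance, the gene classes, peak joining, the width bounds and the starting list.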

Additional observations from a re-analysis of the deposited data

How the results depend on the processing

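Of 81 recomputed values (9 results under 9 alternatives), 53 stayed within their counting interval or, for the number of regions, within 1.5 times, 28 moved and 0 reversed. Only the median ratio had a rule for reversal, so the other results could not be labelled reversed. The cause was not tested where none is named.

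With at least 50% of a region under mutant peaks, the share of intergenic candidates was 11.1%, the median ratio 1.40, the wider share 45.9%, the narrower share 7.16%, the median covered share 89.1% and the share with a neighbour 30.8%; this alternative removes the low ratios by construction. With no H3K27ac within 1 kb the share of candidates was 12.7% and the share with a neighbour 33.2%. With a distance of over 20 kb the share of candidates was 16.5% and the median distance 58889 bp, and with over 5 kb the median distance was 33590 bp. Away from genes of every class, 698 regions were left, with 14.2% of candidates, 22.8% with a neighbour and 0 over a noncoding gene, the last by construction. With peaks under 1 kb apart merged, 35.6% had a neighbour. At 3000 to 10000 bp, 783 regions were left, with 13.6% of candidates, a median ratio of 1.02, 29.8% wider, 27.5% narrower, a covered share of 71.8% and 27.3% with a neighbour. Started from the mutant list, the median mutant to water ratio was 1.48, with 49.5% wider, 14.9% narrower, a median share of 51.6% of a region's bases under water peaks (here the other list) and a median distance of 49569 bp. Starting from the mutant list changes the regions, their midpoints and the list that the width bounds apply to together.

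The 2 planned results on GC and CpG content of whole regions were not run, for want of a genome. No paired analysis was possible because each antibody group has a single list, and leaving out a replicate was not possible for the same reason. Unknown depth limits every missing call.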
